A study of Mus musculus with 8 samples.

Results

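The expression of 9 genes that mark mesothelium was followed in RNA from lung neutrophils: Upk3b, Upk1b, Msln, Wt1, Rspo1, Bnc1, Muc16, Lrrn4 and Aldh1a2. The set was selected on results of these same arrays, in which mesothelial markers had lower values in SP than in PBS, so the difference between the groups is given for them as a description, without a test. A row of the expression table was matched to 7 of the 9 genes, 1 row each, among 24625 rows and 19832 genes with a symbol. No row was matched to Wt1 or Muc16, and they are not described further.

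All mice were wild type (C57BL/6J per the methods, labelled 6 to 12 weeks old, with a narrower range in the methods). In the PBS group the left lung received phosphate-buffered saline, and in the SP group the same volume of a Streptococcus pneumoniae suspension, 2.3 µl per g of body weight. Lungs were digested 24 h later, and cells that bound magnetic beads against the neutrophil protein Ly6G were collected for RNA. Each of 4 PBS and 4 SP samples was hybridised to its own Affymetrix Mouse Gene 1.1 ST array, and levels are given as log2 intensity. The labels only number the replicates, and the study describes each sample as taken from a mouse. Purity was inspected by the authors on stained cells of the SP samples only, and nearly all of these cells were neutrophils. The few others looked mostly like alveolar macrophages, with eosinophils rare. The authors also state that Ly6G mRNA was high in every sample.

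For the labelled cell type, all 10 neutrophil markers lay above the background rows on every array. Their mean over the list was 12.62 to 13.00 in PBS and 12.46 to 12.87 in SP. Markers of other lung cells were bright as well, so a level above background does not by itself identify the cells. In PBS the mean over the list was 11.2 to 11.7 for club cells and 11.6 to 12.1 for alveolar type 2 cells. The club cell gene Scgb1a1 had a PBS mean of 13.63, above that of Retnlg (13.355), the brightest neutrophil marker there. None of the 10 neutrophil markers passed a 2-fold difference at an adjusted p of 0.05 in limma, and the methods' t-test also called 0. Under 2-fold, 4 had an adjusted p of at most 0.05 in limma, 3 lower and 1 higher in SP (5 had an unadjusted p under 0.05). Without SP replicate 3, 1 was called. Array medians were 6.06 to 6.20 in PBS and 5.78 to 5.91 in SP, although the median difference over all rows, SP minus PBS, was 0.10. At an adjusted p of 0.05 and 2-fold, limma called 2773 rows lower (11.3% of all rows) and 1568 rows higher (6.37%) in SP. The lower rows made up 63.9% of the calls, and 44.4% once the arrays were centred on their medians.

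Mesothelium is the flat cell layer that covers the lung surface and lines the pleural, pericardial and peritoneal cavities. Its cells secrete a lubricating surface film, carry epithelial keratins and junctions, and arise from mesoderm rather than from the airway. Wt1, a zinc finger transcription factor, and Msln, the surface protein mesothelin, are their classical markers, and neutrophils are not known for any of the 9 genes. In bulk RNA such as this, fewer cells of a type and less RNA per cell cannot be told apart.

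Among the surface proteins, Upk3b had the widest difference. It encodes uroplakin 3B, a relative of the proteins that stiffen the bladder lining and a much used mesothelial marker. Its log2 level was 11.54, 11.14, 11.57 and 11.14 in PBS replicates 1 to 4, and 7.14, 7.45, 5.83 and 7.74 in SP replicates 1 to 4. The PBS arrays lay close together, all SP arrays lay below them by at least 3.40, and SP replicate 3 was the lowest. The mean went from 11.35 ± 0.24 (SD, n = 4) to 7.04 ± 0.84 (SD, n = 4), a difference of -4.31 (SE 0.38) or 19.8-fold, and only 3 genes with a symbol had a larger fall.

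Upk1b encodes uroplakin 1B, a tetraspanin that pairs with uroplakin 3 proteins in the bladder. Its levels were 10.84, 10.31, 10.62 and 10.20 in PBS and 7.62, 7.69, 5.10 and 8.22 in SP. The groups did not overlap, and SP replicate 3 lay far below the other SP arrays, which gave the widest SP range of any member (3.12). The difference was -3.34 (SE 0.61), or 10.1-fold, and -2.65 without SP replicate 3.

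Msln encodes mesothelin, which is anchored to the cell surface by a lipid and binds the product of Muc16. Its levels were 10.58, 10.21, 10.56 and 10.11 in PBS and 7.82, 8.13, 6.66 and 8.45 in SP. Even its lowest SP array lay above the background rows, and the difference was -2.60 (SE 0.35), or 6.05-fold.

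Lrrn4 encodes a membrane protein with leucine-rich repeats. Its levels were 10.64, 9.83, 10.52 and 10.17 in PBS and 7.27, 7.15, 5.14 and 7.07 in SP. Replicates 1, 2 and 4 of SP were near each other and SP replicate 3 stood apart below them. The mean went from 10.29 ± 0.36 to 6.65 ± 1.01 (SD, n = 4 each), a difference of -3.64 (SE 0.46), or 12.5-fold.

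Bnc1 is the transcription factor of the list that had a row, a zinc finger protein named basonuclin 1. Its levels were 8.27, 7.34, 8.33 and 7.38 in PBS and 5.54, 5.84, 5.38 and 5.90 in SP. PBS fell into 2 pairs, replicates 1 and 3 above replicates 2 and 4, and the measured difference was -2.16 (SE 0.26) or 4.48-fold. With 2 of its 4 SP arrays not above background, the fall was at least 3.88-fold.

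Rspo1 and Aldh1a2 make signals for other cells. Rspo1 encodes R-spondin 1, a secreted protein that strengthens Wnt signalling, and its levels were 8.74, 7.72, 8.79 and 8.32 in PBS and 5.85, 5.79, 5.24 and 5.71 in SP. Its SP arrays lay within 0.61 of each other, and the difference was -2.75 (SE 0.25), or 6.71-fold. Aldh1a2 encodes the enzyme that makes retinoic acid from retinaldehyde. Its levels were 9.37, 8.50, 9.30 and 8.52 in PBS and 5.79, 5.65, 4.77 and 6.17 in SP. The groups lay 2.33 apart at their nearest arrays, and the measured difference was -3.33 (SE 0.33), or 10.04-fold. With 2 of its 4 SP arrays not above background, the fall was at least 7.94-fold.

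All 7 members were lower in SP by at least 2-fold, without overlap between the groups, where 11.3% of all rows were called lower and 21.8% of all rows were lower without overlap; the members were chosen with this contrast known, so nothing is read from that count. The median of the 7 differences was -3.33 and their measured folds ran from 4.48 to 19.8. Over the 10 alternative settings that can move a difference, each member stayed lower in SP, Upk3b between -4.54 and -3.91 and Bnc1 between -2.33 and -1.88. The median was -2.65 without SP replicate 3.

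**Figure D1:**
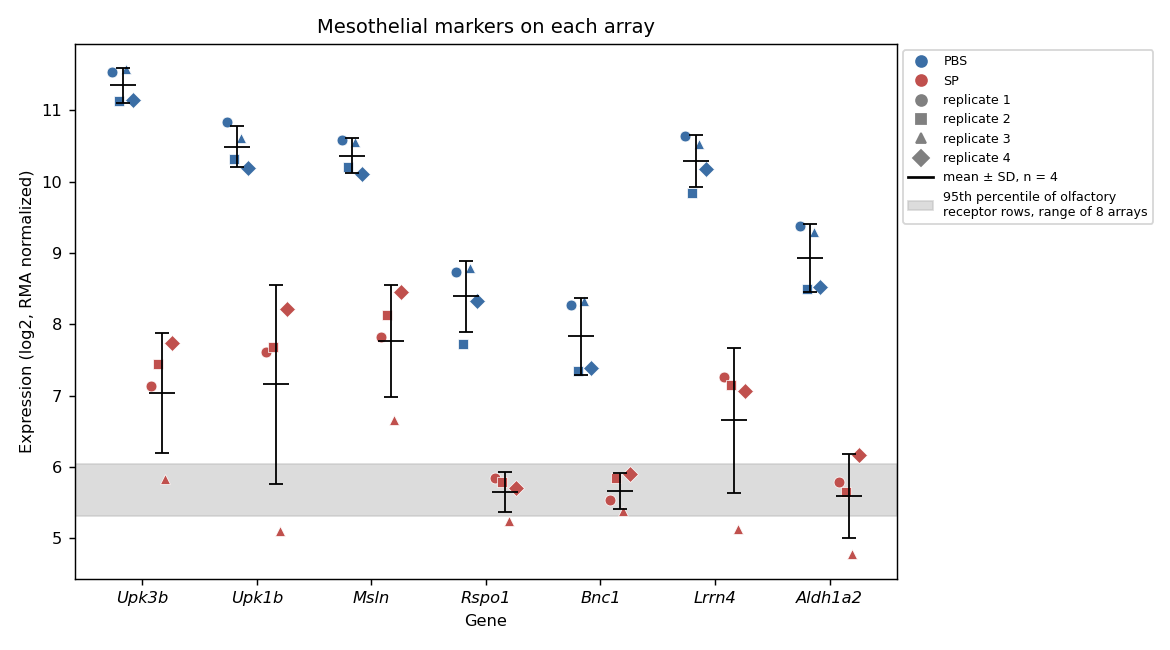
Log2 intensity of the 7 mesothelial markers with a row on each of the 8 arrays (blue PBS, red SP; the symbol gives the replicate), with the mean ± SD of each group and a grey band for the range of the 95th percentiles of the olfactory receptor rows. For every member the 4 SP values lie below the 4 PBS values, and SP replicate 3 (red triangle) is the lowest.

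How far the SP levels stood above background was read from 1080 rows of olfactory receptor genes, which have no known transcript in lung. Their 95th percentile on each array was 5.31 to 5.49 in PBS and 5.66 to 6.04 in SP. All 28 member values in PBS lay above that percentile of their own array, and 20 of 28 did in SP. Msln stayed above it on all 4 SP arrays, Upk3b, Upk1b, Lrrn4 and Rspo1 on 3, and Bnc1 and Aldh1a2 on 2. A value inside the range of these background rows cannot be told from background. The bounds given here raise such a value to the percentile of its own array, which leaves falls of at least 19.1-fold for Upk3b, 10.7-fold for Lrrn4, 8.58-fold for Upk1b and 5.85-fold for Rspo1. Of the 8 SP values there, 6 were from SP replicate 3.

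Reference promoter sequence is shown for 3 members because each holds a short motif of a factor family tied to mesothelial genes. RefSeq (GRCm38.p6) windows of 300 bases, from 250 before to 50 after the gene start, were matched for 5 of the 7 members, and none for Upk1b or Msln. The 250 bases before the start follow, 5′ to 3′ on the strand of the gene, with the motif in capitals. They are Upk3b at chr5:136038246-136038495 on the plus strand, Lrrn4 at chr2:132880863-132881112 on the minus strand and Aldh1a2 at chr9:71215539-71215788 on the plus strand.

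Upk3b: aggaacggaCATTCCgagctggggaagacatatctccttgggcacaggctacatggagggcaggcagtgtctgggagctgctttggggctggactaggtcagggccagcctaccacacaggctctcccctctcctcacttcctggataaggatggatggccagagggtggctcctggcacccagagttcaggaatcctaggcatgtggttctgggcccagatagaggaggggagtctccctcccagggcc
Lrrn4: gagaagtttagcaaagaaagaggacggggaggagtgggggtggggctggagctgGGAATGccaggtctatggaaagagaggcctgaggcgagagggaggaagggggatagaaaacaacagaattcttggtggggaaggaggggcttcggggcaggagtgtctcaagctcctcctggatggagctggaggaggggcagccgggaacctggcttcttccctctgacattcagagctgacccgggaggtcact
Aldh1a2: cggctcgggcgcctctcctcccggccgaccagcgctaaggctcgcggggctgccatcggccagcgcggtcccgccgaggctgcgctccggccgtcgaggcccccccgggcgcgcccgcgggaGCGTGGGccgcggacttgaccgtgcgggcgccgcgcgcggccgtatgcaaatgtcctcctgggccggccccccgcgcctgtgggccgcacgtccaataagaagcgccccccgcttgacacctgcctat

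The motif GGAATG, bound by TEAD factors, was searched on both strands and was present in 14.7% of all 32851 windows. Upk3b held it 241 bases before the start, printed as CATTCC because it lies on the opposite strand, and Lrrn4 held it 196 bases before the start. The motif GCGTGGG, bound by EGR proteins and by WT1, was present in 5.04% of windows and among the members in Aldh1a2, 128 bases before its start. The TATA box TATAAA was present in 13.6% of windows and was not found in these 5. The windows also differed in CpG, with 50 CpG pairs in Bnc1 and Aldh1a2, 29 in Rspo1, 7 in Lrrn4 and 2 in Upk3b, against a median of 7 over all windows. These are letters of the reference, and no binding was measured.

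Within the PBS group the members shared an order of arrays. Replicates 1 and 3 were both above replicates 2 and 4 for all 7 members, with mean deviations over the members of 0.33 and 0.29 from the group mean, and of -0.37 and -0.26 for replicates 2 and 4. This order was noticed after the values were seen and was not tested. It was found in 14.4% of all rows, in 8.95% of the rows at least as bright in PBS as the dimmest member and in 4.9% of the rows called lower in SP. Several other lists had another order. Here PBS replicate 2 was the highest PBS array for all 7 ciliated genes called lower, all 8 endothelial, all 5 alveolar type 2 and all 6 keratin and junction genes called lower, and for 68.8% of all rows called lower (38.1% of the rows at least as bright in PBS as the dimmest member). It was the highest for 4 of 5 club cell, 3 of 6 alveolar type 1 and 1 of 3 fibroblast genes called lower. It was the highest for 0 of 7 members. None of those genes of ciliated cells, endothelium, type 2 cells, keratins or junctions had replicates 1 and 3 above 2 and 4, nor did the club and type 1 genes called lower, while 1 of the 3 fibroblast genes did. Over whole lists, called or not, the order of the members was found in 4 of 10 fibroblast, 3 of 5 eosinophil and 2 of 6 smooth muscle genes. The eosinophil gene Prg2 among these lay inside the range of the background rows on every array.

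Within the SP group, replicate 3 was the lowest array for all 7 members, with a mean deviation over members of -1.06. Replicate 3 was also the lowest SP array for 67.2% of the rows called lower (33.9% of all rows and 56.9% of such bright rows) and for 7 of 7 ciliated genes called lower, so a low replicate 3 was not limited to the members. Replicate 4 was the highest SP array for 5 of 7 members, 0.53 above the group mean on average. It was also the highest for 9 of 10 fibroblast, 8 of 10 endothelial, 8 of 9 alveolar type 2 and 6 of 6 smooth muscle genes. It was the highest for 1 of 8 ciliated and 0 of 10 neutrophil genes. A high replicate 4 was thus not limited to the members.

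**Figure D2:**
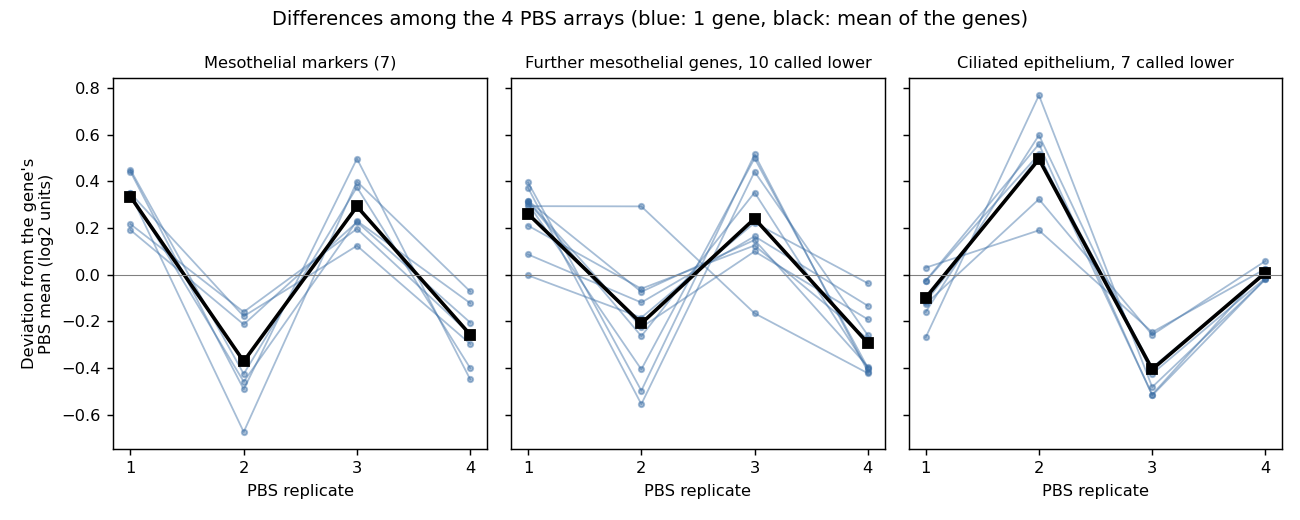
Deviation of each PBS array (x axis, replicate) from the PBS mean of the gene in log2 units (y axis), with a thin line per gene and a thick line for the mean, for the 7 markers, the 10 further mesothelial genes called lower and the 7 ciliated genes called lower. The 7 markers lie above 0 on replicates 1 and 3 and below it on replicates 2 and 4, while the ciliated genes are highest on replicate 2.

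A list of 16 further genes known in mesothelium had a row each. Of these, 10 were called at least 2-fold lower in SP, against 11.3% of all rows, and none were called higher. Their median difference was -1.40, against 0.10 over all rows. The list was assembled with earlier results of these data known.

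The 5 widest falls lay between -3.80 and -3.32. Gpm6a, a neuronal membrane glycoprotein that mesothelium also carries, had levels of 11.86, 11.47, 11.69 and 11.15 in PBS and 8.30, 8.24, 6.33 and 8.27 in SP. It fell by 3.76 (SE 0.44, adjusted p = 0.000271 in limma), with SP replicate 3 again apart from the other SP arrays. Pkhd1l1, a large membrane protein of the fibrocystin family, fell by 3.80 (SE 0.25, adjusted p = 1.74e-05) and Efemp1, the matrix protein fibulin 3, fell by 3.79 (SE 0.45, adjusted p = 0.000318). Nkain4, a small membrane protein that interacts with the sodium pump, had levels of 9.51, 8.62, 9.63 and 8.70 in PBS and 5.79, 5.65, 5.33 and 5.62 in SP. It fell by 3.52 (SE 0.25, adjusted p = 2.35e-05). Chst4, a sulfotransferase, fell by 3.32 (SE 0.22, adjusted p = 1.75e-05), and all 4 of its SP arrays lay inside the range of the background rows, so its fall was at least 5.91-fold.

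Smaller falls were measured for the tight junction gene Cldn15 (-2.05), Igfbp6 (-1.58), Prr15 (-1.55), the zinc transporter Slc39a8 (-1.25) and Ildr2 (-1.18), with adjusted p in limma from 5.71e-05 to 0.0163. With arrays centred on their medians Slc39a8 (-0.97) and Ildr2 (-0.90) were under 2-fold and the list had 8 calls, and Slc39a8 was also under 2-fold without SP replicate 3 (-0.94). No SP array of Ildr2 lay above the background rows, so its fall was at least 1.54-fold. Prr15 lay above those rows on 2 of its 4 SP arrays, and its fall was at least 2.56-fold. Not called were Calb2, Itln1, Prg4, Tbx18, Tm4sf5 and Ptgis, with differences from -0.78 to 0.39. Of these 6, Calb2, Itln1 and Tbx18 lay inside the range of the background rows on every array, so no level could be read for the calretinin or intelectin genes. Ptgis, prostacyclin synthase, had 8.61 ± 0.41 in PBS and 7.82 ± 1.06 in SP (SD, n = 4 each), and its groups overlapped. The PBS order of the members, replicates 1 and 3 above 2 and 4, was present in 14 of the 16 further genes and in 9 of the 10 called lower, all but Slc39a8. The 14 include Calb2 and Tbx18, for which an order among background values cannot be read, and Tm4sf5, above background on 1 PBS array.

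**Figure D3:**
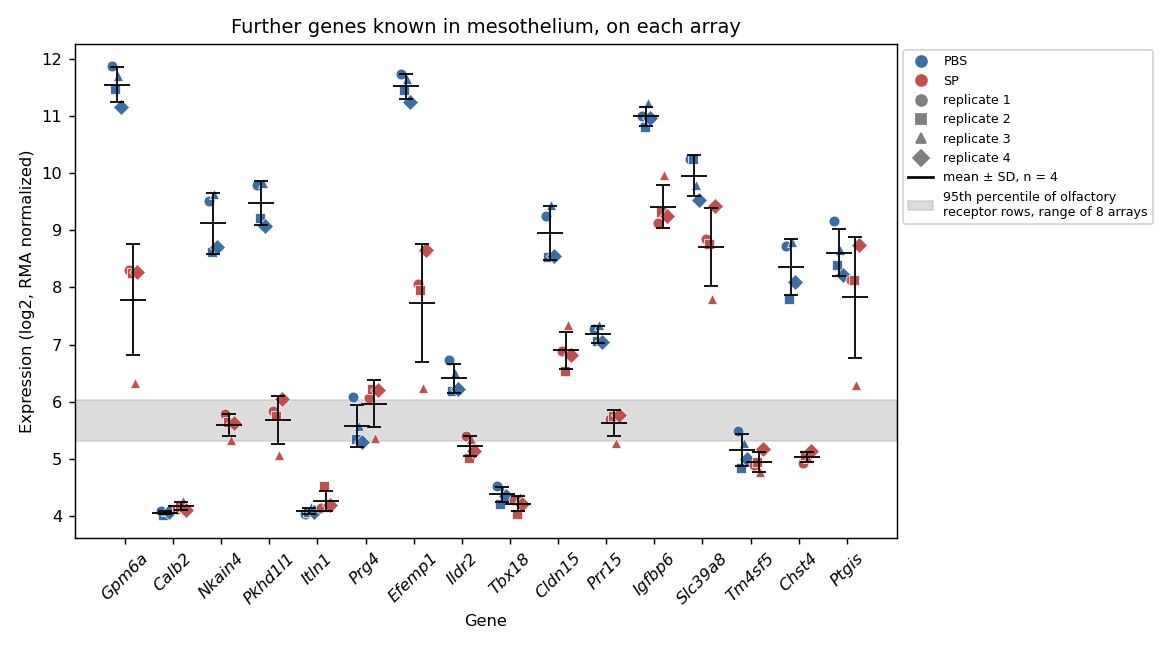
Log2 intensity of the 16 further mesothelial genes on each array (blue PBS, red SP; the symbol gives the replicate), with the mean ± SD of each group and a grey band for the range of the 95th percentiles of the olfactory receptor rows. Gpm6a and Efemp1 keep SP levels above the band on each array, all SP values of Chst4 lie below it, and Calb2, Itln1 and Tbx18 lie below it in both groups.

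The relatives of the members differed among themselves. The uroplakin family had 4 other genes with a row, Upk1a, Upk2, Upk3a and Upk3bl, with differences from -0.06 to 0.30 and a median of 0.12. None was called at 2-fold by limma (1 had an unadjusted p under 0.05) or by the methods' t-test. Their levels were low: Upk1a, Upk3a and Upk3bl lay inside the range of the background rows on every array, and Upk2 lay above it on 1 array of each group. Of 6 relatives of Msln and Muc16, 3 membrane mucins were called lower. Muc20 fell by 2.70 (SE 0.22, adjusted p = 4.32e-05 in limma), Muc4 fell by 1.94 (SE 0.34, adjusted p = 0.00217) and Muc1, which airway epithelium makes in quantity, fell by 1.58 (SE 0.33, adjusted p = 0.00535). Muc20 lay above background on 2 of its 4 SP arrays, so its fall was at least 5.58-fold. None of the 6 had the PBS order of the members, though 3 of them lay inside the range of the background rows on every array.

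Among 6 relatives of Wt1, Bnc1 and Lrrn4 with a row, 2 were called higher. Egr3 rose by 3.19 (SE 0.20, adjusted p = 1.42e-05 in limma) and Egr2 rose by 2.02 (SE 0.32, adjusted p = 0.00145). Both are immediate early zinc finger factors that share a DNA motif with WT1 and that neutrophils and other leukocytes induce. Egr1 was called under 2-fold, and rose by 0.66 (SE 0.11, adjusted p = 0.00154). Of the Lrrn4 relatives, Lrrn3 was called under 2-fold and fell by 0.75 (SE 0.12, adjusted p = 0.00175 in limma), and Lrrn1 and Lrrn2 lay inside the range of the background rows on every array.

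The retinoic acid pathway around Aldh1a2 was measured with 16 other genes. Of these, 6 were called at least 2-fold lower and 1 higher, and the median difference was -0.47. With arrays centred on their medians 3 were called lower and 2 higher, and with another quantile normalization 4 lower and 1 higher. Aldh1a1, a related enzyme that airway epithelium also carries, had levels of 12.40, 12.60, 11.99 and 12.26 in PBS and 9.50, 9.68, 8.89 and 10.11 in SP, and fell by 2.77 (SE 0.25, adjusted p = 7.63e-05 in limma). The retinol carrier Rbp4 fell by 2.57 (SE 0.14, adjusted p = 8.3e-06) and the receptor Rarb fell by 2.26 (SE 0.14, adjusted p = 1.46e-05). Rxra, the common partner of the nuclear receptors, rose by 1.02 (SE 0.14, adjusted p = 0.000555). It was the only higher call, and without PBS replicate 3, SP replicate 1 or SP replicate 2 the 6 calls were all lower. None of the 16 had the PBS order of Aldh1a2, and PBS replicate 2 was highest in 7 of them. However, 5 of the 16 lay inside the range of the background rows on every array.

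The Wnt pathway around Rspo1 was measured with 16 other genes, 5 called at least 2-fold lower and none higher, with a median difference of -0.43. Znrf3, a ligase that removes Wnt receptors and that R-spondins inhibit, fell by 1.73 (SE 0.29, adjusted p = 0.00192 in limma). With 2 of its 4 SP arrays above background, its fall was at least 2.77-fold. The R-spondin receptor Lgr6 had a measured difference of -1.73 (SE 0.34, adjusted p = 0.00425 in limma). No SP array of Lgr6 lay above the background rows, so its fall was at least 2.02-fold. The Wnt feedback gene Nkd1 fell by 1.49 (SE 0.26, adjusted p = 0.00207) and the co-receptor Lrp6 fell by 1.43 (SE 0.26, adjusted p = 0.00287). The other R-spondins, Rspo2, Rspo3 and Rspo4, lay inside the range of the background rows on every array, so of the family only Rspo1 had a level above it.

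Of 9 transcription factors known in mesothelium or the epicardium, 4 were called lower, with a median difference of -0.90 over the list. The PBS order of the members, found in 14.4% of all rows, was present in 1 of the 9, Gata4. That gene was not called and lay inside the range of the background rows on every array. Meis1 fell by 2.08 (SE 0.33, adjusted p = 0.00147 in limma), Gata6 fell by 2.08 (SE 0.31, adjusted p = 0.000941), Tead1 fell by 1.43 (SE 0.32, adjusted p = 0.00828) and Nr2f2 fell by 1.36 (SE 0.41, adjusted p = 0.0282). The call of Nr2f2 was lost by the methods' t-test (adjusted p = 0.0639), under another quantile normalization (limma adjusted p = 0.0691) and when PBS replicate 1, 2 or 4 or SP replicate 1 or 2 was left out (limma adjusted p = 0.0556 to 0.0703), and its groups overlapped.

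Keratins and junction genes, which mesothelium shares with epithelium, had 6 of 10 called at least 2-fold lower and a median difference of -1.86. Krt19 had levels of 11.60, 11.79, 11.45 and 11.68 in PBS and 8.85, 8.90, 7.88 and 9.41 in SP, and fell by 2.87 (SE 0.28, adjusted p = 0.000119 in limma). Bcam fell by 2.28 (SE 0.34, adjusted p = 0.000966), Krt18 fell by 2.16 (SE 0.21, adjusted p = 0.000118) and the junction protein Cdh1 fell by 2.01 (SE 0.22, adjusted p = 0.000182). Ezr and Slpi, the brightest rows of the list, were not among them. Ezr, which ties membranes to actin, rose by 0.35 (SE 0.10, adjusted p = 0.0222 in limma), but not past the threshold under another quantile normalization (0.10, limma adjusted p = 0.448) or without PBS replicate 1 or 4 (limma adjusted p = 0.0657 and 0.0542). The difference of Slpi, a secreted protease inhibitor, was 0.72 (limma adjusted p = 0.0613). For all 6 shared genes called lower the highest PBS array was replicate 2.

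Markers of several other lung cells moved in the same direction as the members, and their part in the members' difference was not tested. Ciliated epithelium had 7 of 8 markers called lower (median -2.66, mean over the list 8.64 to 9.42 in PBS and 6.37 to 6.97 in SP), and its uncalled marker Spag6 lay inside the range of the background rows on every array. Alveolar type 1 cells had 6 of 7 (median -1.96), club cells 5 of 6 (-1.85), endothelium 8 of 10 (-1.39), alveolar type 2 cells 5 of 9 (-1.07; 3 without PBS replicate 2 or SP replicate 3) and alveolar macrophages 4 of 7 (-1.25). In the macrophage list Chil3 rose by 0.97 (SE 0.27, adjusted p = 0.0216 in limma), under 2-fold, and with centred arrays 3 of its genes were called lower and 1 higher. Fibroblasts, which also arise from mesoderm, had 3 of 10 called lower (median -0.60). The brightest of the list were Dcn (-1.85, adjusted p = 0.00194 in limma) and Pi16 (-1.46, adjusted p = 0.00893). Of the 10, 7 were lower in SP, while Pdgfra (0.92), Col1a1 (0.36) and Lum (0.22) were higher and not called. The mean over the 10 fibroblast genes was 7.85 to 8.60 in PBS and 6.95 to 8.49 in SP. No smooth muscle marker of 6 was called at 2-fold (1 had an unadjusted p under 0.05) and no eosinophil marker of 5 (3 had), nor did the methods' t-test call any. Under 2-fold, 1 eosinophil marker had an adjusted p of at most 0.05 in limma. The members' mean was 9.29 to 9.998 in PBS and 5.45 to 7.04 in SP.

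**Figure D4:**
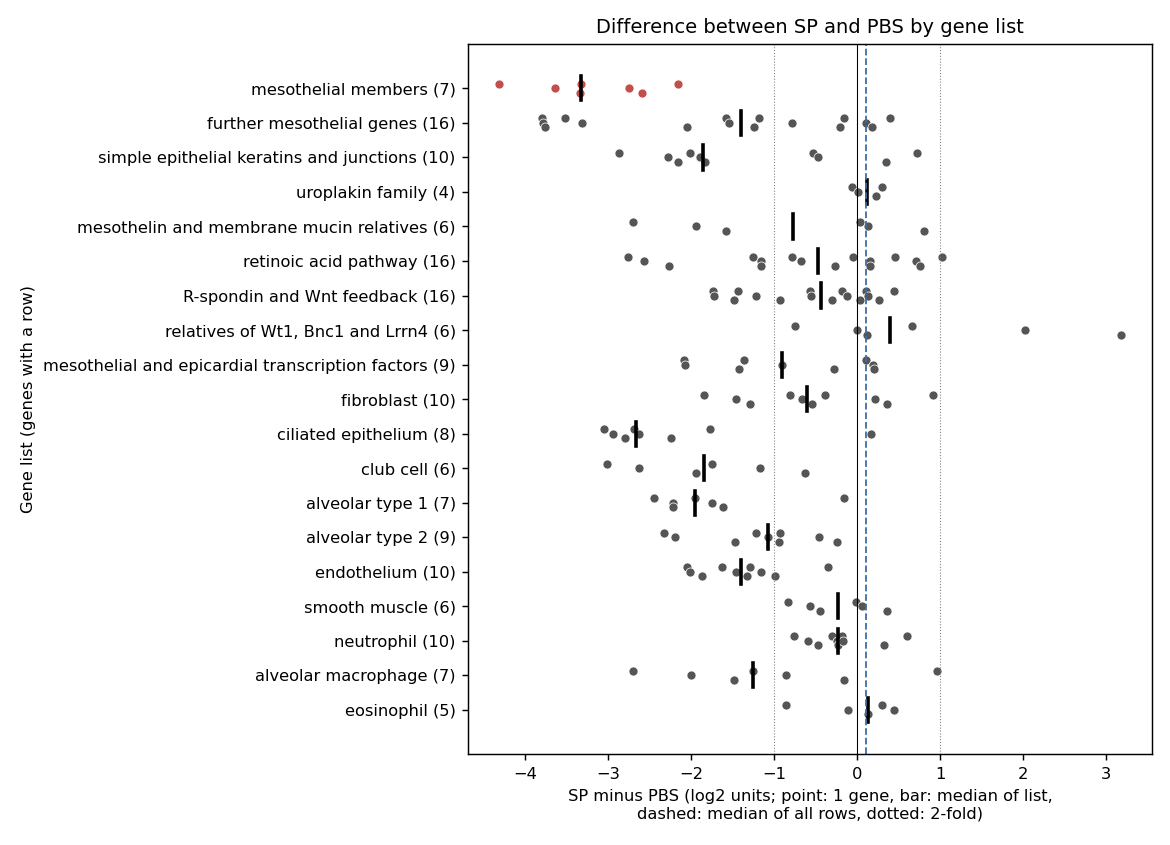
Difference SP minus PBS in log2 units (x axis) of each gene of the mesothelial lists and of the lists of other lung cells (y axis), with a bar for the median of a list, a dashed line for the median of all rows and dotted lines at 2-fold. The median is -3.33 for the members (red), -2.66 for ciliated epithelium and -0.24 for the neutrophil markers.

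The 5 genes whose pattern over the 8 arrays was nearest to the mean pattern of the members were Sulf1, Cdon, Gpc3, Dpp4 and AU021092. Nearness was the root mean square difference, in log2 units, of values centred on each gene's own mean over the 8 arrays, and it was 0.21 for Sulf1, 0.23 for Cdon, 0.25 for Gpc3, 0.32 for Dpp4 and 0.33 for AU021092. Among the members themselves, each of which is part of that mean, it ran from 0.17 for Aldh1a2 to 0.60 for Bnc1. Ranked among all genes with a symbol, Aldh1a2 was 1, Upk3b 237 and Bnc1 264. Many genes outside the list therefore lay nearer than Upk3b or Bnc1. Sulf1, an enzyme that trims sulfate from heparan sulfate, had levels of 10.03, 9.47, 9.99 and 9.50 in PBS and 6.95, 6.63, 5.47 and 7.64 in SP. Gpc3, a cell surface heparan sulfate proteoglycan, had 11.91, 11.68, 11.86 and 11.22 in PBS and 9.03, 8.88, 7.84 and 9.52 in SP. The measure includes both the difference between the groups and the order of arrays within them, so neither is read from these genes.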

How the data were processed

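Samples were grouped and numbered by their titles, 4 PBS and 4 SP. The log2 values were deposited by the authors, who ran RMA with Affymetrix Expression Console and Partek per the labels and the methods. Median polish gave 1 value per gene from its mapped probes, after quantile normalization of signals that had been adjusted for background and for probe composition. Such values are relative within an array, and 4 arrays per group limit the precision. All 8 value columns were used. Of 24625 rows, 19911 (80.9%) received a symbol by accession, versions removed, from NCBI RefSeq genes (GRCm38.p6). A symbol on several rows was represented by its brightest row.

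Rows were compared with limma 3.58.1 (R 4.3.3; lmFit, eBayes, no covariates, two-sided, Benjamini-Hochberg over all rows) and called at an adjusted p of 0.05 and 2-fold. Summaries were made in Python 3.11.15. The fit was tested on simulated data. The members and the gene lists were chosen with earlier results of these data known.

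Genes named were the 9 members; per list of further mesothelial genes, relatives or partners up to 4 called genes with the largest difference and the 2 brightest; the 2 brightest of cell type lists; and the 5 of most similar pattern. Names outside this rule were added after values were seen. The settings varied were the test (the methods' t-test, as ANOVA of both groups, or limma with a robust and trended prior), a block for replicate number, the scaling (arrays centred on medians, or quantile normalized again), the removal of dim rows, and the removal of each of the 8 arrays. The planned comparison of protein sequences was not made here. The values of 1 gene counted in a list are not given.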

Additional observations from a re-analysis of the deposited data

Results flagged for a closer look

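In 122 groups of 4 arrays, 8 held an array far from the other 3 by Dixon's ratio, the gap to the nearest array over the whole range; chance gives this in about 1 in 20 groups. Among the members this was Lrrn4 in SP replicate 3, at 5.14 the lowest SP level. SP replicate 3 also stood apart below the other SP arrays for Gpm6a (6.33), Prr15 (5.28), Muc4 (8.13) and the ciliated gene Tppp3 (9.17), and above them for Slpi (13.31). Itln1 stood apart above the others in SP replicate 2 (4.53), inside the range of the background rows. Egr2 stood apart below the others in PBS replicate 2 (6.90).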

How the results depend on the processing

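Each of the 7 members stayed lower in SP under the 10 alternatives that can move a difference (the other 4 change only its test or the rows tested). Leaving out 1 array at a time, the median of the member differences was between -3.52 and -2.65, the latter without SP replicate 3. Alveolar type 2 genes called numbered 3 with arrays centred on their medians, against 5, and 3 to 7 with single arrays left out (3 without PBS replicate 2 or SP replicate 3). Calls of the other lists with 0 calls ran from 0 to 1 for smooth muscle (1 without SP replicate 4), neutrophil (1 without SP replicate 3) and eosinophil genes (1 without PBS replicate 2). Centring turned the sign of Tbx18 (0.12), Tm4sf5 (0.0749), Rara (0.0191) and S100a8 (0.10), and another quantile normalization that of Calb2 (-0.00239). None of these genes was called at 2-fold. Centring takes the gap between the array medians, -0.28 for SP minus PBS, out of every difference alike. It thereby moves the median of all rows to 0.38. Why the other normalization turned the sign of Calb2 was not tested. With the replicate number as a block, 4324 rows were called (2766 lower) against 4341 (2773 lower). The labels give the numbers no further meaning. The deviations of same-numbered arrays correlated at 0.0156, 0.0304, 0.3496 and -0.2737, and 1 of 4 numbers, replicate 3, correlated best with its own. With 4 arrays per group, this cannot settle whether same-numbered arrays are related. The arrays give no depth; levels near the background rows limit Bnc1 and Aldh1a2 most among the members, and Chst4, Lgr6 and Ildr2, with no SP array above those rows, among the other genes named.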
